A study of Homo sapiens with 10 samples.

Results

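The genes described here are 37 genes of the synapse and of neuronal excitability, picked by gene symbol from the 42335 symbols measured in H9 human embryonic stem cells and in neural cultures grown from them. All 37 symbols were in the data. No measured value is part of the rule, though the list was drawn up with earlier results of these data known. It holds 13 genes of the synaptic vesicle and its fusion, 5 adhesion genes, 5 scaffold genes, 5 transmitter receptor genes, 3 vesicular transmitter transporters, 3 channel genes and 3 pentraxin genes. H9 is an established line of human pluripotent stem cells. A wild-type line (Ctrl) and a line with the labelled genotype SOX1-OT V1 PAKI (V1PAKI) were each sequenced once at 5 stages, d0, d4, d10, d16D and d16V, which gives 10 libraries of bulk RNA.

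Per the labels, d0 is the stem cell stage and the other stages are neural precursor cells derived from it. Colonies were lifted and floated as embryoid bodies, given a neural medium from day 4 and attached to plastic at day 7. For a ventral telencephalic fate the protocol adds Sonic hedgehog protein (Shh) and SAG, a small molecule that activates the same pathway, beginning at day 10. PAKI, D and V are not spelled out in the labels, nor is it said whether V1PAKI is 1 clone. The targeted transcript is low before day 16: SOX1-OT was at most 0.0513 FPKM at d0, d4 and d10 in both lines. At d16D it was 1.87 FPKM in Ctrl and 0.212 in V1PAKI, and at d16V 3.51 and 1.22. FPKM (fragments scaled to transcript length and to the library's mapped total) is the unit of every level given here. Neither line was repeated within a stage and the labels mark no separate cultures. P-values of stage changes therefore rest on how far the lines disagree in those changes, after their mean difference is removed. That spread is pooled over all stages and moderated across genes. It holds no spread between repeat cultures, and the d16 arms of a line may come from a common culture.

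A chemical synapse releases transmitter when calcium entering through voltage-gated channels acts on synaptotagmin and lets the SNARE proteins of vesicle and plasma membrane fuse. Neurexins of the sending cell bind neuroligins of the receiving cell, and scaffolds such as PSD-95, SHANK and HOMER hold the receptors opposite the release site. Several of these genes carry a binding element for the repressor REST, which silences neuronal genes in stem cells and other non-neuronal cells.

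Most of the 37 genes were present at low levels. Between 15 and 20 members reached 1 FPKM in any library of d0, d4 or d10. At d16, 26 members did so in Ctrl d16D, 25 in Ctrl d16V, 23 in V1PAKI d16V and 17 in V1PAKI d16D. The V1PAKI d16D library thus stood at the number seen in the earlier stages. Highest over the d16 libraries was NLGN2, a neuroligin of inhibitory synapses, at 16.3 to 34.1 FPKM.

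**Figure D1:**
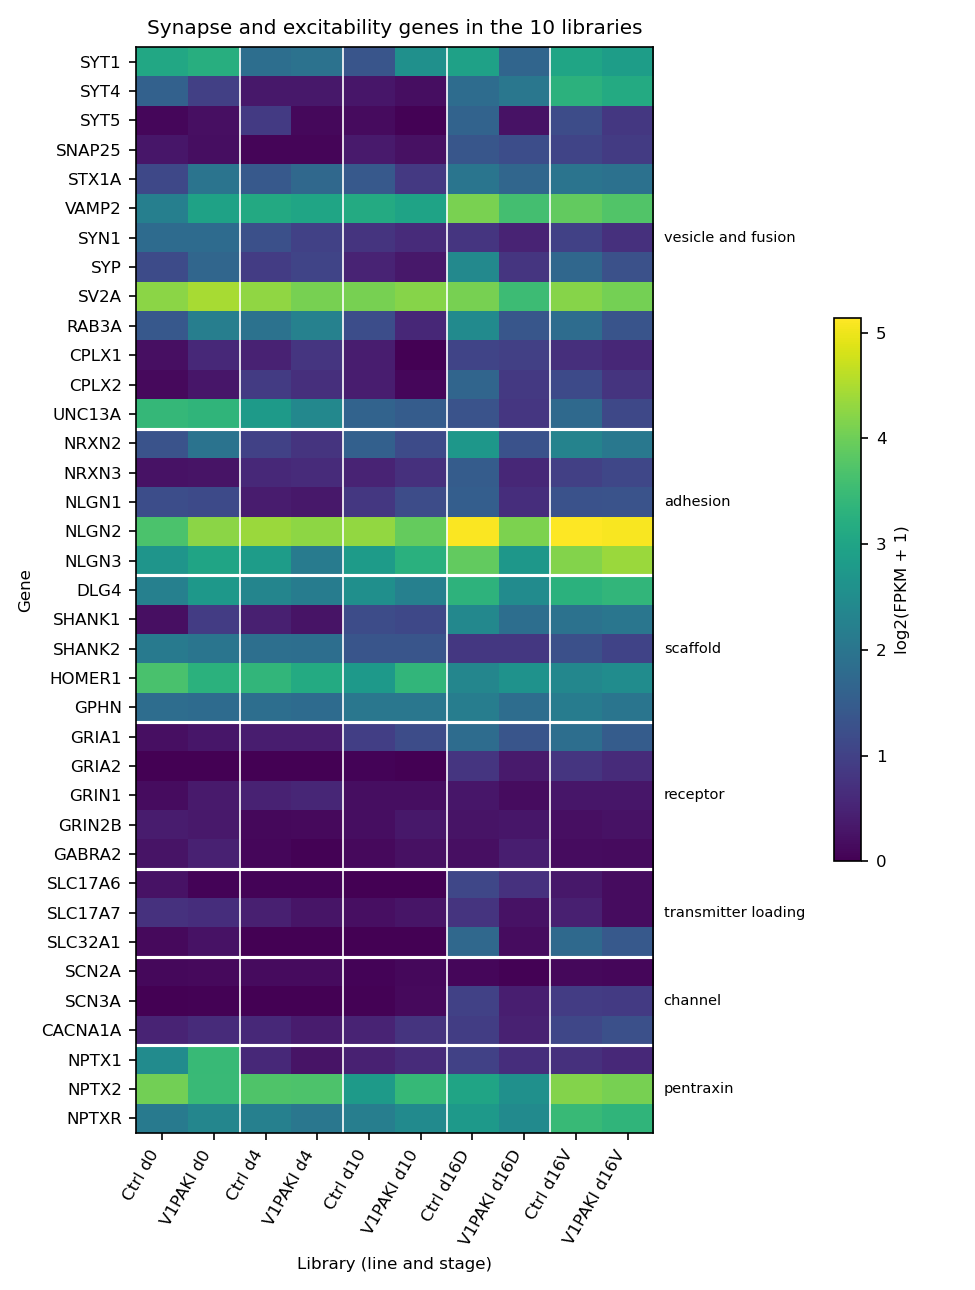
Level of each of the 37 genes in each of the 10 libraries, as log2(FPKM + 1) by colour, with genes grouped by role and libraries ordered by stage, Ctrl before V1PAKI. NLGN2, VAMP2 and SV2A are among the brightest rows at d16, and 17 members reach 1 FPKM in V1PAKI d16D against 26 in Ctrl d16D.

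The labels call the cultures neural precursors, and the marker genes were checked first. The summed level of 10 neuron markers was 39.1 to 67.9 FPKM at d0, d4 and d10, and 115 to 278 FPKM in the d16 libraries, and 9 of the 10 were higher in every d16 library than in both d0 libraries. Progenitor markers summed to 453 to 808 FPKM at d16, so the cultures held progenitor RNA together with neuronal RNA. Of 4 glial markers, GFAP and AQP4 were under 1 FPKM in all 10 libraries, S100B reached 1.60 FPKM in V1PAKI d16D alone, and SLC1A3 was 1.04 to 8.54 FPKM, highest in Ctrl d0. At d16D, V1PAKI held less of the neuron markers (115 against 278 FPKM, 10 of 10 lower) and of the progenitor markers (453 against 774, 8 of 8 lower) than Ctrl. The same library held more of the mesenchyme markers (1087 against 176 FPKM, 6 of 6 higher) and of the endoderm markers (2348 against 403, 5 of 5 higher). At d16V the neuron sums were 153 in V1PAKI and 177 in Ctrl, and mesenchyme and endoderm markers were the lower ones in V1PAKI (7.84 against 282 and 20.4 against 243 FPKM). Markers of other tissues were also present at d10, against which both d16 arms were set. Mesenchyme markers summed to 707 FPKM in Ctrl and 146 in V1PAKI at d10, and endoderm markers to 205 and 32.9. Cardiac and smooth muscle markers summed to 347 and 191 FPKM, and amnion and trophoblast markers to 275 and 62.1. Neural crest and Schwann precursor markers went the other way, with 19.4 and 25.0 FPKM. Fewer neurons and less RNA per neuron cannot be told apart in bulk samples.

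Over the whole course, from stem cells to day 16, 9 members rose and 5 fell among the 28 that were high enough to test. Those that rose were the vesicle and fusion genes SYT4, VAMP2, SNAP25 and CPLX2, the adhesion gene NLGN2, the scaffold SHANK1, the AMPA receptor subunit GRIA1, the GABA and glycine vesicle transporter SLC32A1 and the pentraxin receptor NPTXR. The 5 that fell, UNC13A, NPTX1, SYN1, SHANK2 and HOMER1, had their highest mean level in the stem cells. Both directions occurred within the vesicle group (4 up, 2 down of 12 tested), the scaffolds (1 up, 2 down of 5) and the pentraxins (1 up, 1 down of 3). These calls are from limma on log2(FPKM + 1), with the mean of both d16 arms set against d0 and p-values adjusted over 15779 genes. Genes were tested if they reached 1 FPKM in at least 2 libraries, and a call is an adjusted p under 0.05. Of all genes tested, 17.4% rose and 15.1% fell in this comparison. The median change of the tested members was 0.41 on the log2 scale, against 0.07 over all genes. Above 0 were 19 of 28 members (67.9%) and 54.0% of all genes. Of these 28, 6 reached 1 FPKM only in d16 libraries (SYT5, SNAP25, CPLX2, NRXN3, SLC32A1 and CACNA1A) and NPTX1 did so only at d0, so counts over the tested members carry that selection. The 9 members under the limit are given with their roles. NPTX1 also falls under the limit when a d0 library is left out, so it was not tested then. Without the Ctrl d0 library, 4 calls were left, SYT4 (up) and UNC13A, SHANK2 and SYN1 (down). Without either d16V library there were 9. With each library's trend with GC content and transcript length removed, 6 rose and 6 fell, and SLC32A1, NLGN2, CPLX2 and NPTXR no longer passed (adjusted p 0.153, 0.162, 0.0623 and 0.173).

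**Figure D2:**
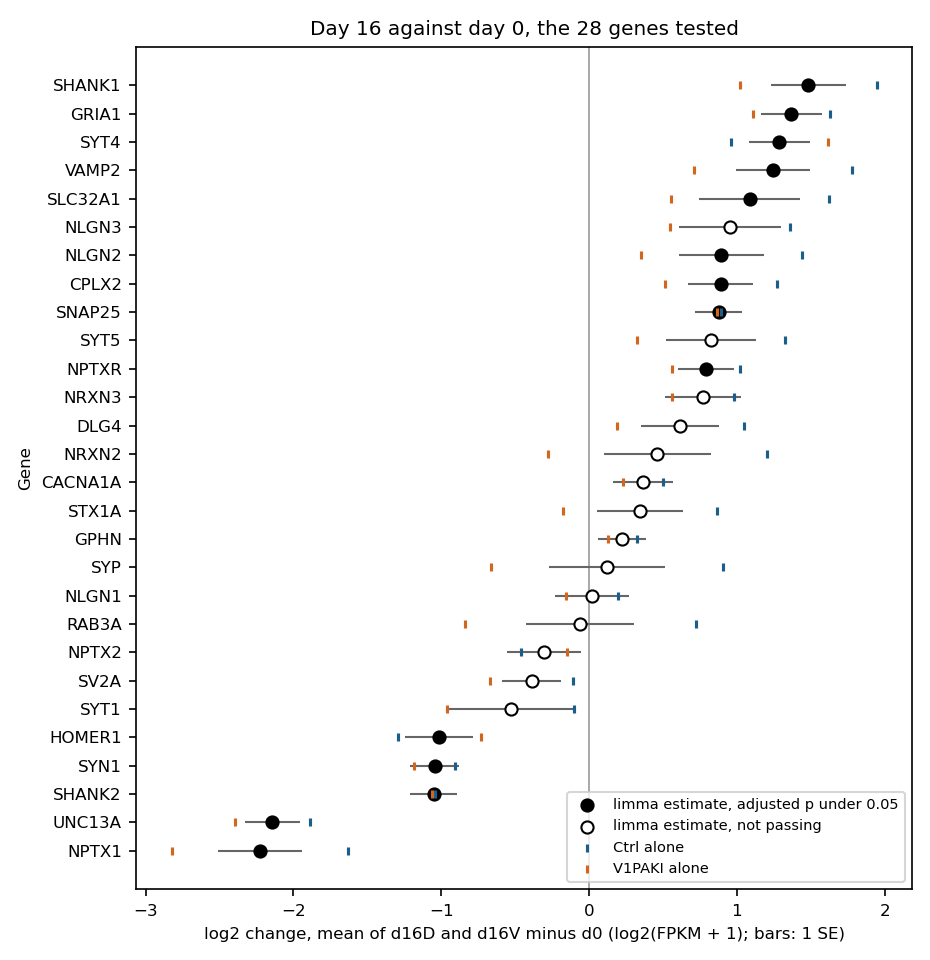
Change from d0 to d16 (mean of both arms) for the 28 tested members on the log2(FPKM + 1) scale, with bars for 1 standard error, filled circles for adjusted p under 0.05, open circles for the rest and ticks for each line alone. SHANK1 at 1.48 has the largest increase and NPTX1 at -2.23 the largest decrease among them.

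The synaptotagmins, which sit on the vesicle and mostly sense calcium, took separate courses. SYT4, a synaptotagmin found on neuropeptide-containing vesicles, measured 2.02, 0.262, 0.244, 2.53 and 8.82 FPKM in Ctrl at d0, d4, d10, d16D and d16V. In V1PAKI the same stages gave 0.968, 0.264, 0.134, 3.11 and 7.84 FPKM. All 4 d16 libraries lay above all 6 earlier ones, with d16V highest in both lines. SYT4 rose by 1.29 on the log2 scale from d0 to d16 (SE 0.21, adjusted p 0.0041). From d10 it rose by 1.68 to d16D (SE 0.24, adjusted p 0.0256) and by 2.97 to d16V (SE 0.24, adjusted p 0.0027), and both of these changes share the d10 libraries. SYT1, the fast calcium sensor of release, followed no single direction: it was 7.42, 2.61, 1.54, 6.68 and 7.05 FPKM in Ctrl and 8.33, 2.83, 4.93, 2.19 and 6.22 FPKM in V1PAKI. Both d0 libraries were above all 4 d16 libraries for SYT1, and V1PAKI d16D was the lowest of the 4. The d16 change of -0.53 (SE 0.42, adjusted p 0.359) did not pass the test. SYT5, a further calcium-binding synaptotagmin, ranged from 0.0167 to 2.11 FPKM and did not pass (0.82, SE 0.30, adjusted p 0.0719).

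Of the SNARE proteins that drive membrane fusion, VAMP2 and SNAP25 passed the test and STX1A did not. VAMP2, the SNARE of the vesicle membrane, measured 3.65, 7.66, 7.80, 16.2 and 13.9 FPKM in Ctrl and 6.78, 7.06, 6.85, 11.1 and 12.4 FPKM in V1PAKI. Its d16 libraries did not overlap the earlier ones, and it rose by 1.24 from d0 to d16 (SE 0.25, adjusted p 0.0097), which is a 2.57-fold rise of the mean FPKM. Without Ctrl d0 the change was 0.76 (adjusted p 0.0946). SNAP25, the plasma membrane SNARE with a pair of helices, was 0.248, 0.0474, 0.299, 1.60 and 1.06 FPKM in Ctrl and 0.140, 0.0468, 0.174, 1.31 and 0.860 FPKM in V1PAKI. Here too every d16 library was above every earlier one, and the increase was 0.88 (SE 0.16, adjusted p 0.0065), with a 6.23-fold difference of mean FPKM that the log2(FPKM + 1) scale understates. STX1A, the syntaxin partner of SNAP25, ranged from 0.818 to 2.96 FPKM and did not pass (0.34, SE 0.29, adjusted p 0.385). In the GENCODE v29 annotation 17.9% of the exonic bases of STX1A lie under exons of BUD23 on the other strand and 13.2% of those of VAMP2 under AC129492.3 on the same strand. How strand was handled is not stated there or in the labels, so reads in the STX1A stretch may have been counted with either gene. The VAMP2 overlap is on the same strand, where no strand setting separates the reads, and AC129492.3 reached 10.5 FPKM. The values of STX1A and VAMP2 are uncertain to that extent.

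Proteins that prepare vesicles for fusion split in direction. UNC13A, which primes docked vesicles, was 9.76, 5.92, 2.09, 1.50 and 2.38 FPKM in Ctrl and 9.20, 4.30, 1.82, 0.744 and 1.15 FPKM in V1PAKI. It was highest in stem cells of both lines, lower at each of d4 and d10, and fell by 2.14 on the log2 scale from d0 to d16 (SE 0.19, adjusted p 0.0005), a 6.57-fold difference of mean FPKM. CPLX2, a complexin, which binds the SNARE complex, was 0.0991, 0.851, 0.328, 2.18 and 1.21 FPKM in Ctrl and 0.235, 0.623, 0.0610, 0.817 and 0.705 FPKM in V1PAKI. It rose by 0.89 (SE 0.22, adjusted p 0.0197), although the V1PAKI d16 values lay within the range of the d4 libraries. Its relative CPLX1 reached 1.08 FPKM in Ctrl d16D, was listed at 0 in V1PAKI d10 and was under the limit for testing. RAB3A, the small GTPase of synaptic vesicles, ranged from 0.487 to 4.49 FPKM with a change of -0.06 (SE 0.36, adjusted p 0.916), and 9.1% of its exonic bases lie under MPV17L2.

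None of the 3 remaining vesicle proteins rose. SV2A, a membrane glycoprotein of the vesicle, was among the most abundant members at every stage, with 18, 18.3, 15.9, 15.9 and 17.5 FPKM in Ctrl and 21.1, 15.9, 17.5, 10.5 and 15.8 FPKM in V1PAKI. Its d16 change was -0.39 (SE 0.20, adjusted p 0.168), and its lowest library was V1PAKI d16D. SYP, synaptophysin, ranged from 0.263 to 4.36 FPKM (0.12, SE 0.39, adjusted p 0.831), with the highest value in Ctrl d16D. SYN1, synapsin I, which ties vesicles to the cytoskeleton, was 2.46, 1.40, 0.713, 0.726 and 0.976 FPKM in Ctrl and 2.48, 0.999, 0.547, 0.427 and 0.642 FPKM in V1PAKI. It was highest at d0 in both lines and fell by 1.04 (SE 0.16, adjusted p 0.0039), a 3.56-fold difference of mean FPKM.

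SYN1 and the AMPA receptor subunit GRIA2 are shown with their promoter sequence because they are the only members in which the REST element was found, and their levels went opposite ways. A REST element was searched as TTCAGCACC, any pair of bases, then GGACAGCGC, on both strands, with up to 4 mismatches in the 18 fixed letters. The windows run from 250 bases before to 50 bases after each gene start (RefSeq, GRCh38.p14). They cover 28 of the 37 members in 45 windows. The element was found in 2 of these 45 windows and in 231 of 35116 windows of all genes (0.658%). The stretches below are given along the gene's own strand, with the match in capitals.

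GRIA2, chr4:157220384-157220413, plus strand, match on the opposite strand: gcgagGCGCTGTCCTCGGTGCTGAAaggcc
SYN1, chrX:47620066-47620095, minus strand: ccagcTTCAGCACCGCGGACAGTGCcttcg

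The GRIA2 match has no mismatch and lies at bases -230 to -211 relative to the start used for window chr4:157220369-157220668. GRIA2 has other windows, at other starts, which held no match. Its first listed base is 157220120, so the match lies downstream of that start. The SYN1 match has 1 mismatch, C18T (positions counted from 1 at the element's 5′ end, the unfixed pair included), and lies at -233 to -214. A match is a description of these letters and not a measured binding site. GRIA2 was listed at 0 in both lines at d0 and d4. It was 0.0345 FPKM in Ctrl and 0.00837 in V1PAKI at d10, then 0.721 and 0.734 FPKM in Ctrl d16D and d16V and 0.299 and 0.542 in V1PAKI. REST itself was 10.3, 13.8, 9.48, 8.16 and 7.77 FPKM in Ctrl and 8.04, 13.6, 15.5, 9.60 and 7.96 FPKM in V1PAKI. Its RNA did not pass the test from d0 to d16 (-0.11, SE 0.22, adjusted p 0.720). SRRM4, the splicing factor that makes a shortened REST form in neurons, rose by 0.79 (SE 0.22, adjusted p 0.0306). Whether REST takes part in either course was not tested.

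A second element, the cyclic AMP response element TGACGTCA, was in 649 of the 35116 windows (1.85%) and in 2 of the 45 member windows, those of DLG4 and SYN1. The stretches are printed because SYN1 carries both elements within its window. DLG4 has several windows, at different starts, and only chr17:7205138-7205437 held the element. DLG4 lies on the minus strand with its outermost listed base at 7220050, so the element lies inside the gene.

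DLG4, chr17:7205273-7205302, minus strand: gaccaggcgatTGACGTCAgggacctgggc
SYN1, chrX:47619998-47620027, minus strand: tgaaggcgcgcTGACGTCActcgccggtcc

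An NRF1 element, GCGCATGCG, was in 673 windows of all genes (1.92%) and in that of STX1A among the members. Median GC content was 63% in the member windows and 58.7% over all windows.

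Adhesion genes were led by the neuroligins. NLGN2 measured 11.8, 19.6, 18.6, 33.3 and 34.1 FPKM in Ctrl and 18, 18.2, 14.2, 16.3 and 32.9 FPKM in V1PAKI. In 3 of the 4 d16 libraries it was above all earlier values, while V1PAKI d16D stayed among them. It rose by 0.90 (SE 0.29, adjusted p 0.0469), a call lost in 8 of the 10 fits with 1 library left out. The change was 0.42 (adjusted p 0.420) without Ctrl d0 and 1.37 without V1PAKI d0. NLGN3, a neuroligin of both excitatory and inhibitory synapses, was 5.43, 6.17, 6.08, 14.0 and 17.3 FPKM in Ctrl and 6.94, 3.41, 8.56, 5.55 and 19.5 FPKM in V1PAKI. The same V1PAKI d16D library was the low one, and the change of 0.95 (SE 0.35) did not pass (adjusted p 0.0690). NLGN1, of excitatory synapses, ranged from 0.266 to 1.89 FPKM with a change of 0.02 (SE 0.25, adjusted p 0.959).

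The neurexins, partners of the neuroligins, did not pass. NRXN2 was 1.47, 0.992, 1.98, 5.59 and 3.94 FPKM in Ctrl and 2.87, 0.704, 1.26, 1.44 and 3.17 FPKM in V1PAKI, a change of 0.46 (SE 0.36, adjusted p 0.350). The lines went opposite ways, with 1.20 in Ctrl and -0.28 in V1PAKI. NRXN3 ranged from 0.187 to 1.81 FPKM (0.77, SE 0.25, adjusted p 0.0512). It did pass with TPM, with a pseudocount of 0.1, with no term for the line and with the GC and length trend removed. With no filter it did not.

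Scaffolds of the postsynaptic density showed opposite courses of close relatives. SHANK1, a scaffold that joins receptor complexes to actin, was 0.165, 0.362, 1.28, 4.27 and 2.83 FPKM in Ctrl and 0.890, 0.207, 1.16, 2.62 and 3.06 FPKM in V1PAKI. All d16 values were above all earlier ones, and it rose by 1.48 (SE 0.25, adjusted p 0.0053), a 6.06-fold difference of mean FPKM. With the GC and length trend removed its change was 0.77 (adjusted p 0.0310), below those of SYT4 (1.46) and GRIA1 (1.34). SHANK2, of the same family, was 3.25, 2.66, 1.56, 0.786 and 1.39 FPKM in Ctrl and 2.99, 2.60, 1.54, 0.780 and 1.05 FPKM in V1PAKI. Its d16 values were all below the earlier ones, and it fell by 1.05 (SE 0.16, adjusted p 0.0034). The lines differed by little at every stage for SHANK2, so that the mean FPKM was 3.12 at d0 and 1.00 at d16.

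HOMER1, which links SHANK to metabotropic receptors, was 11.7, 9.38, 5.84, 4.12 and 4.22 FPKM in Ctrl and 8.75, 7.80, 9.44, 5.13 and 4.62 FPKM in V1PAKI. It was lower in every d16 library than in any earlier one and fell by 1.01 (SE 0.23, adjusted p 0.0146). DLG4, which encodes PSD-95, was 3.74, 4.02, 4.91, 8.93 and 8.71 FPKM in Ctrl and 5.65, 3.44, 3.68, 4.53 and 9.37 FPKM in V1PAKI. As for NLGN2 and NLGN3, V1PAKI d16D lay among the earlier values, and the change of 0.62 (SE 0.26, adjusted p 0.110) did not pass. GPHN, gephyrin, the scaffold of inhibitory synapses, varied least, from 2.45 to 3.52 FPKM (0.22, SE 0.16, adjusted p 0.324).

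Among receptor subunits, GRIA1 was the one that reached 1 FPKM. It was 0.153, 0.321, 0.929, 2.5 and 2.64 FPKM in Ctrl and 0.239, 0.321, 1.30, 1.55 and 1.80 FPKM in V1PAKI. GRIA1 was higher at d10 than at d4 in both lines and higher again at d16, and it rose by 1.37 from d0 to d16 (SE 0.21, adjusted p 0.0033), a 10.8-fold difference of mean FPKM. GRIA2 was under the limit for testing. When all genes were kept, its change from d0 was 0.64 (SE 0.10, adjusted p 0.0237), with no fold given since it was listed at 0 at d0. The NMDA receptor genes GRIN1 (0.119 to 0.470 FPKM) and GRIN2B (0.0789 to 0.304 FPKM) and the GABA-A receptor gene GABRA2 (0.0242 to 0.392 FPKM) were under 1 FPKM in all 10 libraries.

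SLC32A1, which loads GABA and glycine into vesicles, was 0.0876 FPKM in Ctrl d0, listed at 0 at d4 and d10, and 2.31 and 2.39 FPKM at d16D and d16V. In V1PAKI it was 0.186 FPKM at d0, listed at 0 at d4 and d10, and 0.120 and 1.70 FPKM at d16D and d16V. V1PAKI d16D was thus below its own d0 value, while the other 3 d16 libraries were above 1 FPKM. It rose by 1.09 (SE 0.34, adjusted p 0.0449), a call lost in 8 of the 10 fits with 1 library left out, with no filter (adjusted p 0.138) and with a pseudocount of 0.1 (adjusted p 0.0696). The change was 0.71 without Ctrl d16D. Of the vesicular glutamate transporters, SLC17A6 ranged from 0, as listed at d10 in both lines, to 1.14 FPKM in Ctrl d16D, and SLC17A7 from 0.123 to 0.701 FPKM.

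Channel genes were low. CACNA1A, the pore of the P/Q-type calcium channel that triggers release, ranged from 0.319 to 1.40 FPKM (0.37, SE 0.20, adjusted p 0.203). SCN3A, a sodium channel of the fetal brain, was at most 0.0885 FPKM before d16, listed at 0 in V1PAKI d4, and 0.344 to 0.980 FPKM at d16. With all genes kept its change was 0.78 (SE 0.15, adjusted p 0.0371), and its d16 libraries did not overlap the earlier ones. In GENCODE v29, 9.9% of its exonic bases lie under AC019197.1, which was at most 0.00841 FPKM. SCN2A, a further neuronal sodium channel, stayed between 0.0244 and 0.110 FPKM.

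Pentraxins are secreted or membrane-bound proteins that gather AMPA receptors. NPTX1 was 4.58, 0.514, 0.385, 1.00 and 0.631 FPKM in Ctrl and 9.97, 0.214, 0.558, 0.601 and 0.498 FPKM in V1PAKI. It was high at d0 alone in both lines and fell by 2.23 from d0 to d16 (SE 0.28, adjusted p 0.0018), a 10.7-fold difference of mean FPKM. NPTX2 was 15.6, 12.3, 5.97, 6.96 and 17.3 FPKM in Ctrl and 10.2, 12.0, 9.87, 5.01 and 15.95 FPKM in V1PAKI, with d16V the highest library and d16D below d0 in each line. The receptor NPTXR was 3.29, 3.70, 3.56, 5.87 and 10.1 FPKM in Ctrl and 4.11, 3.12, 4.47, 4.52 and 9.29 FPKM in V1PAKI. It rose by 0.79 (SE 0.19, adjusted p 0.0181), with the lowest d16 value just above the highest earlier one. The change of NPTX2 from d0 was -0.30 (SE 0.25, adjusted p 0.381).

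Without a model, 8 members were higher in all 4 d16 libraries than in all 6 earlier ones: SYT4, SNAP25, VAMP2, SHANK1, GRIA1, GRIA2, SCN3A and NPTXR. Of the 15779 tested genes 10.5% met the same condition, and 6 of the 8 are among them. SHANK2 and HOMER1 were lower in all 4, as were 10.1% of tested genes. Without the V1PAKI d16D library, an alternative added after its marker sums were seen, 16 members were higher and 2 lower. Of the 16, 14 are among the tested genes, of which 18.8% were higher and 14.6% lower. SNAP25 in both counts, and NRXN3, SLC32A1 and CACNA1A in the second, were tested only because they reached 1 FPKM at d16.

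**Figure D3:**
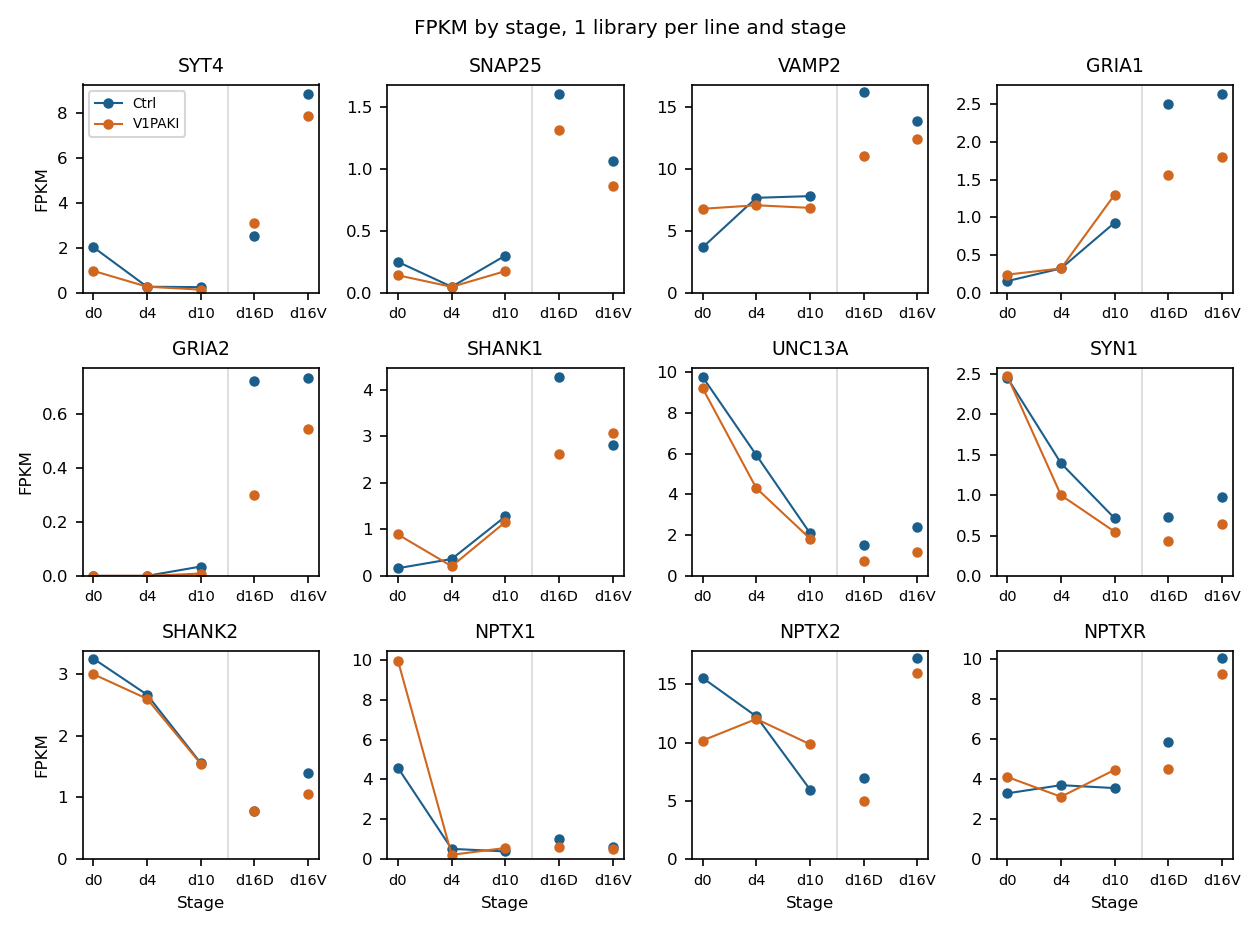
Level in FPKM (linear axes from 0, scaled per gene) by stage for 12 members, 1 point per library, coloured by line, with d0, d4 and d10 joined and the d16 arms apart. SYT4, SHANK1, GRIA1 and VAMP2 are highest at d16, while UNC13A, NPTX1, SHANK2 and SYN1 are highest at d0, where UNC13A was 9.76 and 9.20 FPKM.

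Between the stem cells and the d4 embryoid bodies 1 tested member fell and none rose. NPTX1 fell by 2.53 (log2; SE 0.33, adjusted p 0.0302) and was lower in both lines. Over all genes 0.507% rose and 0.311% fell in this step by limma. At an unadjusted p under 0.05 no member was higher and 6 of 28 (21.4%) were lower, against 6.26% and 5.59% of all genes. A change above 0 was seen in 8 of 28 members and in 50.3% of all genes, with a median of -0.18 against 0.00 over all genes. The values that were lower in both lines without passing include SYT1 (-1.25, adjusted p 0.374), SYT4 (-0.95, adjusted p 0.151), UNC13A (-0.79, adjusted p 0.196) and SYN1 (-0.66, adjusted p 0.211). The NPTX1 call was lost without either d4 or either d16V library, and NPTX1 could not be tested without a d0 library. It reached 1 FPKM only at d0, so this call carries that selection. From d4 to d10 limma called no member in either direction, beside 0.919% of genes up and 0.52% down. At an unadjusted p under 0.05, 2 members (7.14%) were higher and 3 (10.7%) lower, near the 7.81% and 7.38% of all genes. UNC13A came nearest, at -1.04 (SE 0.22, adjusted p 0.0678), and it passed under another scaling and with a correction for GC content and length.

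From d10 to d16D SYT4 was the single member called, beside 0.551% of all genes up and 0.38% down. At an unadjusted p under 0.05, 9 of the 28 (32.1%) were higher against 9.49% of all genes. Lower were 1 of the 28 (3.57%) and 7.48% of all genes. SNAP25 (0.99, SE 0.18, adjusted p 0.0615) and CPLX2 (1.02, SE 0.25, adjusted p 0.122) were next. From d10 to d16V SYT4 was again the one called, beside 0.52% up and 0.292% down over all genes. Here 15 of 28 (53.6%) were higher at an unadjusted p under 0.05, against 10.9% of all genes. Lower were 1 of 28 (3.57%) and 9.02% of all genes. NPTXR (1.10, SE 0.22, adjusted p 0.0689) and SLC32A1 (1.60, SE 0.40, adjusted p 0.110) were next. Both arms were set against the same d10 libraries. Of the 28, 6 were tested only because they reached 1 FPKM at d16, so both unadjusted counts carry that selection. SYT5, SNAP25, CPLX2 and SLC32A1 are of this kind and are in both counts. The SYT4 call at d16V was lost without either d16V library, and that at d16D was lost when any 1 of 8 of the 10 libraries was left out, those of d0 being the exceptions. Without V1PAKI d16D, SLC32A1 and SYP were called at d16D in place of SYT4, and without either d16D library 3 members were called at d16V.

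Between the arms no member was called by limma. Over all genes 0.196% were higher in d16V and 0.165% lower. At an unadjusted p under 0.05, 4 members were higher in d16V and none lower, against 2.55% and 2.79% of all genes. The 4 were NPTX2 (1.35, SE 0.29, adjusted p 0.216), SYT4 (1.29, SE 0.24, adjusted p 0.112), NLGN3 (0.97, SE 0.40, adjusted p 0.880) and NPTXR (0.79, SE 0.22, adjusted p 0.415). Each of the 4 was higher in d16V in both lines. SLC17A6, the glutamate transporter of subcortical neurons, was the other way, with 1.14 against 0.254 FPKM in Ctrl and 0.650 against 0.131 FPKM in V1PAKI. With all genes kept its difference was -0.66 (SE 0.11, adjusted p 0.186).

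Between the lines, limma with the stages as blocks called no member. Of all genes tested 0% were higher in V1PAKI and 0.019% lower. At an unadjusted p under 0.05 no member was higher and UNC13A was lower, by -0.35 (SE 0.14, adjusted p 0.9998). It was lower in V1PAKI at 5 of 5 stages. SNAP25 (-0.12) and SHANK2 (-0.07) were also lower at 5 of 5, but nearly equal at some. The difference was -0.0008 for SNAP25 at d4 and -0.005 for SHANK2 at d16D. The share of all genes lower at 5 of 5 stages was not counted. Over all genes 1.02% were higher and 1.45% lower at that p. The median difference of the members was -0.11, against -0.02 over all genes, and 4 of 28 lay above 0, against 44.4% of all genes. The direction varied by stage, with the median of the members above 0 at d0 and lowest at d16D, as given below.

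Stage by stage the lines can be described but not tested, since each has 1 library. Genes that reached 1 FPKM in one or both libraries were counted when they differed by at least 1 on the log2(FPKM + 1) scale. At d0 none of 20 members did, beside 3.73% of genes higher and 0.82% lower in V1PAKI. The median of these members was 0.23, against 0.11 over all genes, and 7 of 20 lay below 0. At d4 none of 16 did, beside 0.797% and 0.857%. The medians there were -0.10 and -0.05, with 12 of 16 members below 0. At d10 1 of 18 did, SYT1, higher by 1.22 in V1PAKI, beside 3.78% and 7.45%. The d10 medians were 0.00 and -0.04, with 9 of 18 members below 0.

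At d16D 7 of 26 members were lower in V1PAKI and none higher, while 3.46% of all genes were lower and 5.5% higher. The 7 were SYP (-1.63), SLC32A1 (-1.56), NRXN2 (-1.43), SYT5 (-1.39), SYT1 (-1.27), NLGN3 (-1.19) and RAB3A (-1.08), and NLGN2 (-0.98) and NRXN3 (-0.92) lay just outside. SYP was 4.36 FPKM in Ctrl and 0.733 in V1PAKI, and RAB3A 4.49 and 1.60. With TPM or with a pseudocount of 0.1 the 7 became 11, and among genes of at least 5 FPKM they were 3. Below 0 were 24 of 26 members, with a median of -0.55, against 58.9% of all genes and a median of -0.10. The neuron marker sum was 115 FPKM in V1PAKI against 278 in Ctrl, and the mesenchyme and endoderm sums were the higher ones in V1PAKI, as given above. Their part in the difference was not tested. At d16V none of 26 members passed the fold, beside 0.412% higher and 2.49% lower over all genes, and the median was -0.15 against -0.07. The difference of the line effects between the arms was not tested.

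**Figure D4:**
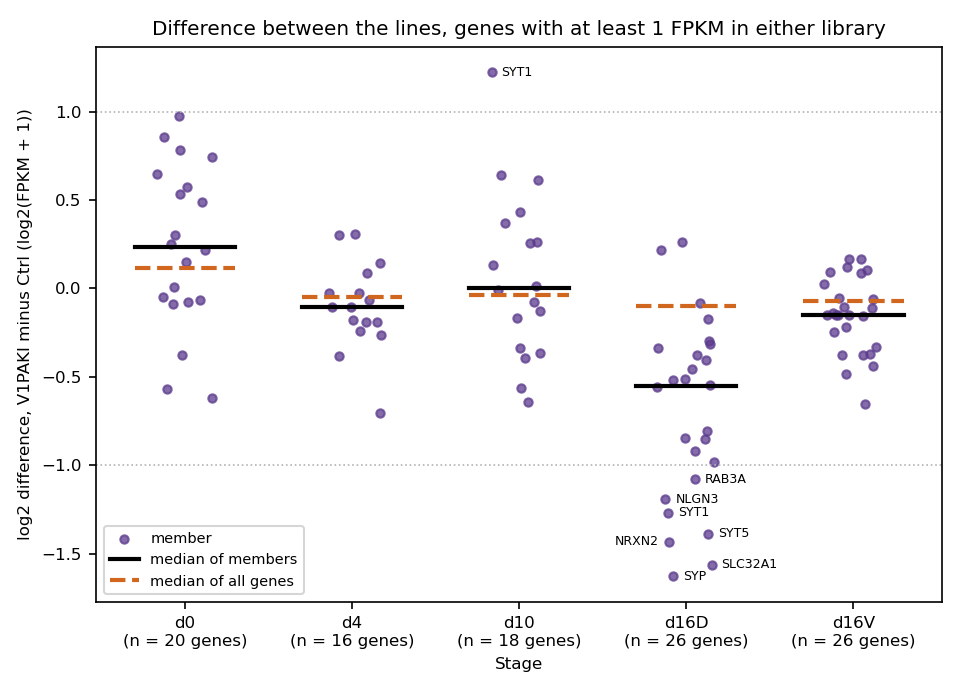
Difference between V1PAKI and Ctrl on the log2(FPKM + 1) scale for each member at each stage, 1 library per line, for genes that reached 1 FPKM in one or both, with bars at the medians of members and of all genes and dotted lines at the difference counted. At d16D 7 members lie past the lower line, SYP lowest at -1.63, and at d16V none do.

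A wider list of 155 synapse and excitability genes was set beside the members, of which 153 were in the data and 89 were tested. From d0 to d16, 23 rose and 20 fell by limma, with a median of 0.13, beside 17.4% and 15.1% of all genes and a median of 0.07. The largest increases were those of PTX3, a long pentraxin (2.46, adjusted p 0.00035), SYT11, a synaptotagmin without calcium binding (2.14, adjusted p 0.0021), and HOMER3, a relative of HOMER1 (1.91, adjusted p 0.0017). Among the decreases were those of the GABA-A receptor gene GABRA5 (-2.26, adjusted p 0.00052) and the neuroligin NLGN4X (-2.06, adjusted p 0.0017). NLGN4X was 53.4 and 40.7 FPKM in Ctrl and V1PAKI stem cells and 7.38 to 13.8 FPKM at d16. The relatives SHANK1 and SHANK2, and HOMER3 and HOMER1, thus moved in opposite directions, as did NLGN2 and NLGN4X.

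Over single steps few of the wider list were called. From d0 to d4 the glutamate transporter SLC1A1 fell (-1.98, adjusted p 0.0268). From d4 to d10 the receptor phosphatase PTPRD rose (1.19) and SYT6 fell (-1.22), both at an adjusted p of 0.0477. PTX3 rose from d10 to d16D (2.33, adjusted p 0.0060) and to d16V (2.55, adjusted p 0.0027). GRIK3, a kainate receptor subunit, rose from d10 to d16V by 2.93 (adjusted p 0.0067). It was also the 1 gene of the list called between the arms, higher in d16V by 2.53 (SE 0.29, adjusted p 0.0171), with 18.1 against 1.89 FPKM in Ctrl and 8.67 against 0.902 FPKM in V1PAKI. Between the lines none of the 89 was called by limma, and 2 were lower in V1PAKI at an unadjusted p under 0.05. Of the 89, 31 lay above 0 in V1PAKI against Ctrl, beside 44.4% of all genes. SYT11, though not called, was lower in V1PAKI at every stage. It was 3.52, 4.37, 5.44, 21.8 and 13.6 FPKM in Ctrl and 0.133, 0.410, 2.25, 3.82 and 5.16 FPKM in V1PAKI.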

How the data were processed

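Bulk RNA of 10 H9 libraries was measured, 1 per line and stage. The authors deposited FPKM values, made with cutadapt 1.18, HISAT2 2.1.0 and Cufflinks on GRCh38, per the submitters' processing notes. The annotation, any filter or the strand setting was not given in the sources used here. Sums were 200509 to 256270 FPKM per library. Depth is unknown, so no counting intervals are given, and a 0 can be a failed estimate.

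Values were taken as log2(FPKM + 1), which understates changes of low genes. A gene entered the fit if 2 or more libraries reached 1 FPKM, which left 15779 genes. The fit used limma 3.58.1 in R 4.3.3 (stage and line as terms, intensity trend, 4 residual degrees of freedom, 7.77 after moderation). Tests were two-sided, with Benjamini-Hochberg adjustment over all genes and a threshold of 0.05. The code was tested on simulated data. A correction for GC content and length, added after seeing the data, covered 15490 genes. The members and lists were chosen with earlier results of these data known. All 10 values are given for members called between stages or reaching 5 FPKM, and of the wider list at most the 3 largest calls per direction, of which 1 is not reported here.

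Promoter windows are from RefSeq (GRCh38.p14). They were found for 28 members and not for CPLX1, GRIN1, NPTX1, NPTXR, NRXN2, SCN3A, SHANK1, SHANK2 and SNAP25. Gene overlaps are from GENCODE v29.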

Additional observations from a re-analysis of the deposited data

How the results depend on the processing

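Precision is limited by 1 library per line and stage, and 9 members reached 1 FPKM in fewer than 2 libraries. With TPM the 14 calls from d0 to d16 became 18, adding SYT5, NRXN3, NLGN3 and DLG4. From d0 to d16 the 14 calls became 6 (of 11 members tested) with a filter at 5 FPKM, and 4 to 18 with 1 library left out. From d0 to d4 the 1 call became 0 with no filter and 0 with a filter at 5 FPKM, and 0 to 1 with 1 library left out. From d4 to d10 the 0 calls became 1 (UNC13A) with median-of-ratios scaling and 1 with the GC and length trend removed, and stayed at 0 with any 1 library left out. From d10 to d16D the 1 call became 0 with no filter, 0 with a filter at 5 FPKM and 2 (SNAP25 and SYT4) with no term for the line, and 0 to 2 with 1 library left out. From d10 to d16V the 1 call became 2 (NPTXR and SYT4) with no term for the line, and 0 to 3 with 1 library left out. Between the arms and between the lines over the stages there were 0 calls in every alternative run. The count of members past the fold between the lines rose from 0 to 2 at d0, from 1 to 2 at d10 and from 7 to 11 at d16D with TPM, and to 3, 2 and 11 with a pseudocount of 0.1. Among genes of at least 5 FPKM it was 0 at d10 and 3 at d16D. Members above in all d16 libraries numbered 8, and 16 without V1PAKI d16D. For single genes, 221 values kept direction and side of the threshold and 53 kept direction without passing, and none reversed. These single-gene values are of called genes only. A changed filter, no term for the line or leaving out a library of another stage keeps the estimate as it was. No reversal could arise in those settings. TPM moved the median of all genes from 0.07 to 0.28 between d0 and d16. UNC13A, SYT4, SHANK2 and SYN1 passed from d0 to d16 with each of the 10 libraries left out. The cause of these shifts was not tested. The line term pairs the stages within a line, and the fit without it is given above.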
